A study of Mus musculus with 6 samples.

Results

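The genes described here are the integrin subunits and the core proteins of focal adhesions, read in JAG1-overexpressing and control mouse astrocytes. They were chosen by name alone: every row whose symbol is that of an integrin alpha or beta subunit, and 20 named proteins of the adhesion site. The rule found 46 genes among the 23282 rows of the tables, 26 of them integrin subunits. The cells were a line of Ink4a/Arf -/- mouse astrocytes, which lack the Ink4a/Arf tumor suppressor locus and are listed with brain as their tissue. Control cells received the empty vector pcDNA3.1-puro (3 libraries), and JAG1 cells received pcDNA3.1-JAG1-puro, which expresses the NOTCH ligand Jagged1 (3 libraries). Both groups share the Ink4a -/- background. Control libraries are labelled WT by genotype, read here as without added JAG1. Separate transfections for the 3 libraries of each group are not stated in the sources used here, so p-values measure the spread between these libraries, which may be technical. The study asked how JAG1 acts on the migration and invasion of glioma cells.

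Integrins are transmembrane receptors built from an alpha and a beta subunit, and the pair decides which matrix protein is bound. Inside the cell, talins and kindlins bind the beta tail and switch the receptor to its active form, vinculin and alpha-actinin tie the site to actin filaments, and the kinases FAK and SRC signal from it. In astrocytes and in glioma, integrins hold the cell to laminin of the basement membrane and to fibronectin and vitronectin, and cells that migrate build and take apart these sites at their leading edge.

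RNA was read by QuantSeq, a 3' mRNA method that gives about one fragment per transcript at its 3' end, so levels are not divided by gene length. Levels are TMM-normalized read counts scaled to 1e6 per library (CPM), and changes are log2 fold changes of JAG1 against control with their standard error (SE). The libraries held between 14341634 and 20489062 counts, and 3 counts, taken as the limit of detection, were worth 0.148 to 0.206 CPM. The Jag1 gene read 8.99, 10.8 and 11.2 CPM in the control libraries and 15.2, 13.6 and 13.8 CPM in the JAG1 libraries. It rose by 0.46 (SE 0.11, adjusted p = 0.00446). Whether the vector carries a mouse or a human JAG1, and which 3' end it uses, is not given in the sources used here, so this row may not count the vector's transcript. Of 10 astrocyte markers, Gfap and Aqp4 were at 0 in all 6 libraries, Slc1a2 and Slc1a3 had at most 2 counts, and 5 were lower in JAG1. The 5 lower ones were Sox9, Gja1, Aldh1l1, Aldoc and S100b, all detected in every control library. The 10 markers summed to 311 to 370 CPM in control and 108 to 122 CPM in JAG1. Most of the sum was Sox9 and Gja1. Sox9 went from 181 ± 4.64 to 18.0 ± 1.25 CPM and Gja1 from 151 ± 35.8 to 96.7 ± 8.65 CPM (SD, n = 3 each). Thus Sox9 and Gja1 were detected while Gfap and Aqp4 were not at this depth, and the cells are called astrocytes here after their label.

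Most of the integrin and adhesion genes that changed were lower in JAG1-overexpressing cells. Of the 46 genes, 30 passed the filter on low counts, and of these 15 were lower, 4 were higher and 11 did not pass the test. Together 63.3% of the 30 passed. Across all 11712 genes tested, 55.1% passed, 27.4% higher and 27.7% lower, so a changed gene was common in this comparison. The 46 genes took 0.307%, 0.319% and 0.335% of all counts in the control libraries and 0.247%, 0.243% and 0.244% in the JAG1 libraries. Their summed level fell from 3222 ± 104 CPM (SD, n = 3) to 2435 ± 37.7 CPM (n = 3), a ratio of 0.756, with no overlap between the groups. Abundant genes weigh most in this sum. On average Actn1 went from 1031 to 585 CPM, Itgb7 from 230 to 72.5 CPM and Itga6 from 221 to 96.0 CPM. Most of the fall lay in these genes, so the sum does not describe all 46 alike. In these bulk libraries, fewer cells that express a gene and less RNA per cell cannot be told apart.

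The median log2 fold change of the 30 tested genes was -0.22, against 0.00386 over all tested genes. Of the 12 tested integrin subunits 8 were lower and 1 was higher (median -0.61), together 75%. Of the 18 tested adhesion site proteins 7 were lower and 3 higher (median -0.06). Together these were 55.6%, about the 55.1% of all tested genes. At least 2-fold lower were 7 of the 30, where 8.49% of all tested genes were, and at least 2-fold higher was 1, Lims1, where 5.46% were. The libraries of the 2 groups did not overlap for 20 of the 30 genes, 16 of them lower in JAG1, and for 62.0% of all tested genes.

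**Figure D1:**
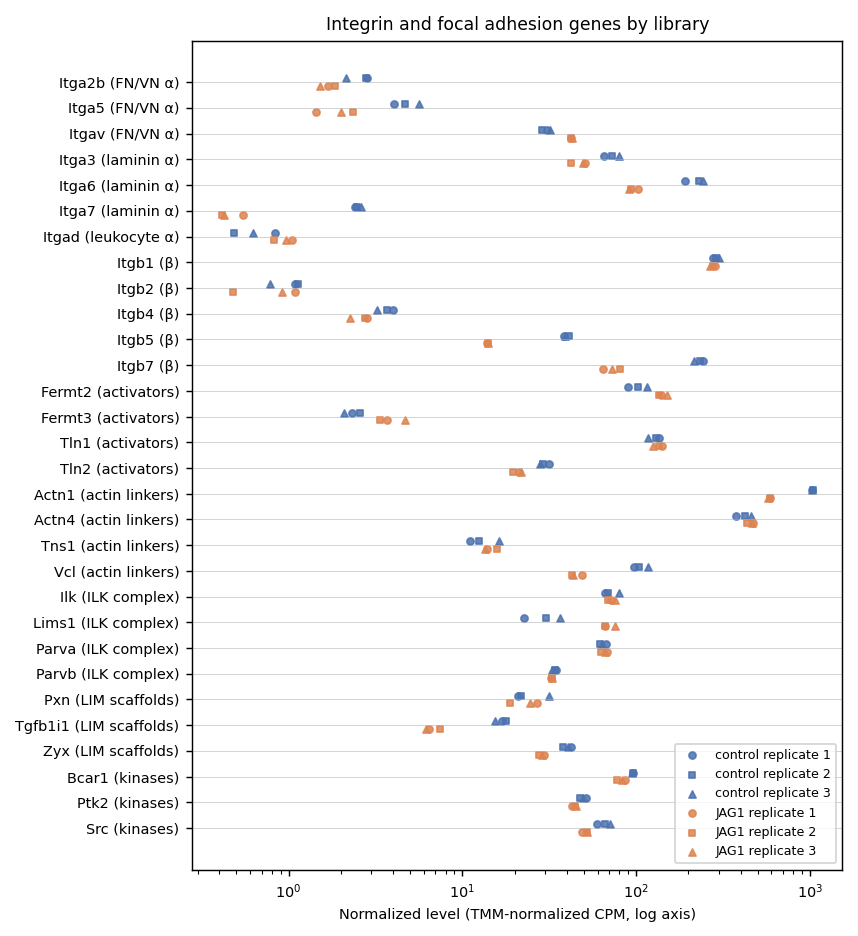
Level of each of the 30 tested integrin and adhesion genes in every library, as TMM-normalized CPM on a log axis, with the role of each gene in parentheses. Blue marks are the 3 control libraries and orange marks the 3 JAG1 libraries. The orange marks lie left of the blue ones for Itga7, Itgb7, Itgb5, Itga6, Vcl and Actn1, right of them for Lims1, Itgav and Fermt2, and among them for Itgb1, Ilk and Tln1.

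Promoters of some of the changed genes are shown: Vcl, Actn1 and Itgb7 were lower in JAG1 and Fermt2 was higher. Windows of Lims1, Itgb5 and Itgav, which also changed, held none of the matches below and are not printed. The printed windows thus do not stand for the changed genes as a set. Each run is the 250 bases upstream of the RefSeq transcription start on GRCm38.p6, written 5′ to 3′ on the gene's own strand. Capitals mark matches, on either strand, to the CArG box of serum response factor, to CATTCC, the core bound by TEAD factors, or to TGGGAA, the core bound by the NOTCH effector RBPJ.
Vcl chr14:20929148-20929397, plus strand: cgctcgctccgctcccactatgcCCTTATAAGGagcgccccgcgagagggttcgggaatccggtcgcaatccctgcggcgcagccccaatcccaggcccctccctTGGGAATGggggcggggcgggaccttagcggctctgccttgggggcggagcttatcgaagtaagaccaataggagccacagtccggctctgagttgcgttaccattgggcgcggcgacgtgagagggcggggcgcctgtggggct
Actn1 chr12:80260364-80260613, minus strand: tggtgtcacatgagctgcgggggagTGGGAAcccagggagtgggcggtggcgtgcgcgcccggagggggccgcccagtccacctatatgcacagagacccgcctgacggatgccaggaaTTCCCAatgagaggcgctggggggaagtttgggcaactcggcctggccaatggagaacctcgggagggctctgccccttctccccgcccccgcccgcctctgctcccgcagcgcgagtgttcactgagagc
Fermt2 chr14:45530066-45530315, minus strand: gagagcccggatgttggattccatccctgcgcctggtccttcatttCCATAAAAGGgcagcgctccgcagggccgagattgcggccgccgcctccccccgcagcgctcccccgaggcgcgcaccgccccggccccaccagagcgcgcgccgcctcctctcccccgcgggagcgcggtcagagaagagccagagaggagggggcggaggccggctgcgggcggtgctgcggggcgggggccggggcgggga
Itgb7 chr15:102231936-102232185, minus strand: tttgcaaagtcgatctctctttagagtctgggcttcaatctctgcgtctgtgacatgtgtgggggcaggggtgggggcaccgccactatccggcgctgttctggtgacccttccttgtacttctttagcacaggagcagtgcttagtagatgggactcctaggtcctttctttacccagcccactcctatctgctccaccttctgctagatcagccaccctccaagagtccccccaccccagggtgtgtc

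In the Vcl promoter the first capitals are a CArG box, and the second run holds TGGGAA overlapping a CATTCC match of the other strand. Actn1 had TGGGAA once on each strand, Fermt2 had a CArG box, and the Itgb7 window held none of these letters. RefSeq start sites were found for 32 of the 46 genes, with 38 windows. A CArG box stood in 3 of the 38 windows, those of Fermt2, Itgb6 and Vcl (7.89%), and in 1.47% of 32851 windows of all genes. CATTCC stood in 10.5% of the windows of these genes and in 12.6% of all windows, and TGGGAA in 18.4% and 21.6%. The SMAD palindrome GTCTAGAC was in none of the 38 windows and in 0.167% of all windows. The genes with a CArG box include Fermt2, which rose, and Vcl, which fell. TGGGAA stood in windows of Actn1, Bcar1, Itga2b and Vcl (lower), Actn4 and Tns1 (no call) and the untested Fermt1. CATTCC stood in those of Vcl (lower), Actn4 and Itgb1 (no call) and the untested Itga10. Genes called higher had few windows, those of Itgav, Lims1, Fermt2 and Fermt3, and none held either match. That is too few to relate a match to direction. These are matches of letters only.

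Each of the 3 laminin receptor alpha subunits was tested and fell, where 27.7% of all tested genes were lower. The middle of their changes on the log2 scale was -1.20, that of Itga6. In control they averaged 221 CPM (Itga6), 72.6 CPM (Itga3) and 2.50 CPM (Itga7). With 3 genes so uneven in level, the count is no separate result for the class. Itga6 (chr2:71745616-71858416, plus strand), the alpha subunit of the main laminin receptors and a known marker of glioma stem cells, was the most abundant alpha subunit. It read 192, 230 and 241 CPM in control and 102, 93.9 and 91.5 CPM in JAG1. No JAG1 library came near the lowest control library, and Itga6 fell by 1.20 (SE 0.08, adjusted p = 4.08e-07). Itga3, which pairs with beta1 to bind laminin, read 65.1, 72.6 and 80.1 CPM in control and 50.8, 42.2 and 49.5 CPM in JAG1. It fell by 0.61 (SE 0.09, adjusted p = 0.000188), and its groups did not overlap.

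Itga7, best known as the laminin receptor subunit of muscle, showed the steepest fall of the 30 genes at a low level. It had 49, 46 and 50 counts in control and 11, 6 and 7 in JAG1, or 2.50 ± 0.102 CPM against 0.462 ± 0.0749 CPM (SD, n = 3 each). The change was -2.40 (SE 0.27, adjusted p = 1.94e-05). The 3' end of Itga7 lies near that of Mettl7b on the other strand, and whether the authors counted by strand is not given in the sources used here. Mettl7b had 7 to 18 counts in control and 1 to 7 in JAG1, and its part in the Itga7 counts was not tested.

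Receptor subunits for fibronectin and vitronectin went in both directions. Itgav, the alpha subunit shared by the vitronectin receptors, was the one integrin subunit that rose. It read 30.6, 28.9 and 31.8 CPM in control and 42.2, 42.0 and 43.0 CPM in JAG1, with every JAG1 library above every control library. The rise was 0.48 (SE 0.07, adjusted p = 0.000133). Itga5, which forms the classical fibronectin receptor with beta1, read 4.05, 4.67 and 5.60 CPM in control and 1.45, 2.34 and 2.004 CPM in JAG1. It fell by 1.33 (SE 0.22, adjusted p = 0.000328). Itga5 lies on chromosome 15, whose tested genes were mostly lower, and relative to the median of the others its change was -0.80.

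Itga2b, the alpha subunit of the platelet fibrinogen receptor, was close to the threshold. It read 2.81, 2.79 and 2.14 CPM in control and 1.69, 1.86 and 1.52 CPM in JAG1, which do not overlap, and the test gave -0.61 (SE 0.22, adjusted p = 0.0313). The call was lost with DESeq2 and without control replicate 1 or 2 or JAG1 replicate 1 or 3, the adjusted p ranging from 0.0183 to 0.104 over the alternatives. Itga8, the remaining subunit of this class, had at most 1 count in any library.

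The beta subunits fell in sum from 563 ± 4.68 CPM (SD, n = 3) to 366 ± 8.59 CPM (n = 3), a ratio of 0.651, and that fall lay in Itgb7 and Itgb5. Itgb7 (chr15:102215995-102231944, minus strand) pairs with alpha4 or alphaE on lymphocytes that home to the gut, and it was the second most abundant beta subunit of these cells. It read 242, 233 and 215 CPM in control and 64.6, 80.4 and 72.5 CPM in JAG1. It fell by 1.67 (SE 0.08, adjusted p = 1.90e-08), or 3.18-fold. Its known alpha partners were hardly detected: Itga4 had at most 2 counts in control and 4, 0 and 0 in JAG1, and Itgae had 3 to 6 counts in control and 5 to 10 in JAG1.

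Itgb5 (chr16:33829665-33949338, plus strand), the beta subunit that joins alphaV in a vitronectin receptor, read 38.5, 41.2 and 39.2 CPM in control and 13.9, 14.04 and 14.1 CPM in JAG1. The libraries of each group lay close together, and Itgb5 was 2.83-fold lower in JAG1 (SE 0.08 on the log2 scale, adjusted p = 2.82e-08). Its alpha partner Itgav moved the other way, so that the log2 ratio of Itgav to Itgb5 counts went from -0.38 ± 0.114 to 1.60 ± 0.0150 (SD, n = 3 each). Since Itgav was higher and Itgb5 lower in every JAG1 library, the groups could not overlap in this ratio. Its exact two-sided permutation p of 0.1, the smallest possible for 3 against 3 libraries, was thus fixed by the separate levels. It adds nothing to the calls of these genes.

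Itgb1 (chr8:128685654-128733200, plus strand), the common partner of most alpha subunits, was the most abundant beta subunit and passed no threshold. It read 278, 287 and 299 CPM in control and 283, 277 and 268 CPM in JAG1, and the groups overlapped. The difference was -0.06 (SE 0.05, adjusted p = 0.304). Itgb4, the hemidesmosome subunit that pairs with alpha6, had 81, 69 and 62 counts in control and 57, 40 and 37 in JAG1, and fell by 0.48 (SE 0.18, adjusted p = 0.0424). That call was lost with DESeq2, limma-voom or no filter and without any one of 5 libraries (control replicates 1 and 2, JAG1 replicates 1, 2 and 3), with adjusted p from 0.0336 to 0.136. Itgb2, the beta subunit of leukocytes, had 15 to 22 counts in control and 7 to 22 in JAG1, with no call (-0.23, adjusted p = 0.604).

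Since the subunits changed unequally, the makeup of the integrin transcripts differed between the groups. Among alpha subunit counts Itga6 held 65.6% ± 1.42 in control and 49.9% ± 1.59 in JAG1 (SD, n = 3 each). Itgav took the opposite course, from 9.10% ± 0.981 to 22.1% ± 0.996. The share of Itga3 was 21.6% ± 0.412 and 24.7% ± 1.65, higher in JAG1 although its own level was lower, while the total of the alpha subunits fell from 336 ± 34.1 to 192 ± 8.50 CPM. Itga5 stayed a minor subunit at 1.41% ± 0.0998 and 1.01% ± 0.276.

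Among beta subunit counts Itgb1 went from 51.2% ± 2.16 to 75.3% ± 1.80 with no change called in its own level. Itgb7 went from 40.9% ± 2.15 to 19.8% ± 1.93, and Itgb5 from 7.04% ± 0.230 to 3.83% ± 0.1001. All 7 of these shares separated the groups without overlap, each with an exact two-sided permutation p of 0.1, the smallest that 3 against 3 libraries allow. The shares of a set are parts of the same total, so they move together and are not 7 separate results. A share says how counts are divided and not which subunits pair at the cell surface.

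**Figure D2:**
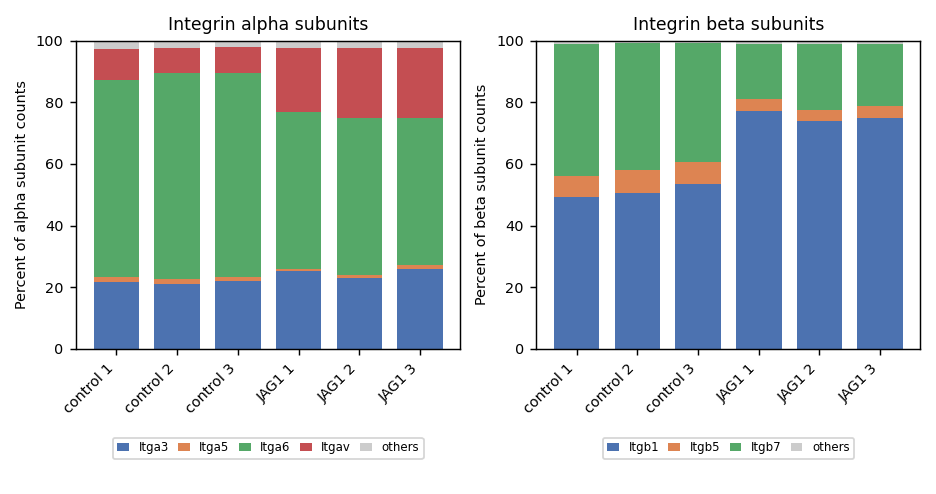
Percent of alpha subunit counts (left) and of beta subunit counts (right) held by each subunit in each library, stacked to 100. In the 3 JAG1 libraries the Itgav band is wider and the Itga6 band narrower than in the 3 control libraries, and Itgb1 takes 73.9% to 77.3% of beta counts against 49.4% to 53.6%.

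The other integrin subunits had few counts, none above 21 in any library. None of the 4 collagen receptor alpha subunits passed the filter: Itga10 had 8 to 16 counts in control and 6 to 13 in JAG1, Itga1 had at most 6, and Itga2 and Itga11 at most 1. Of the leukocyte alpha subunits, Itgad alone was tested, at 0.839, 0.483 and 0.628 CPM in control and 1.05, 0.826 and 0.972 CPM in JAG1, with overlapping groups and no call (0.54, adjusted p = 0.188). Itgal, the alpha subunit of the leukocyte receptor LFA-1, had 15, 6 and 12 counts in control and 1, 1 and 0 in JAG1. Summed, these were 33 and 2 counts, a depth-adjusted ratio of 14.5 with an exact 95% counting interval of 3.72 to 125. Itgal failed the filter, and without a filter its adjusted p was 0.000835, the one gene of the 16 untested ones past the threshold.

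Itgb6, whose receptor activates latent TGF-beta, had 0, 2 and 1 counts in control and 3, 2 and 5 in JAG1. Itgb8, which serves the same function in brain, had 3, 0 and 3 counts in control and none in JAG1. For Itgb8 the exact 95% counting interval of the ratio of control to JAG1 began at 1.04, just above 1, and without a filter its adjusted p was 0.105. For Itgb6 the ratio was 0.264 with an interval of 0.0467 to 1.03 and an adjusted p of 0.202 without a filter, so neither difference passed the threshold at this depth. Itgb3 had at most 4 counts and Itgam at most 2. Itga9, Itgax and Fermt1 were at 0 in all libraries, which allows up to 0.148 to 0.206 CPM, and in all 8 of the 46 genes had no more than 3 counts in any library. Markers of microglia and leukocytes, which share several of these subunits, summed to 3.92 to 4.94 CPM in control and 4.43 to 6.58 CPM in JAG1. Of the 8 markers 3 were tested and 2 were higher, and Ptprc, which defines leukocytes, had at most 4 counts. Their part in the leukocyte subunits was not tested.

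Among the 4 tested integrin activators Fermt2 and Fermt3 were higher, Tln2 was lower and Tln1 did not pass the test. Fermt2 (chr14:45458795-45530118, minus strand), the widely expressed kindlin that binds beta tails beside talin, read 89.5, 103 and 116 CPM in control and 139, 135 and 151 CPM in JAG1. All JAG1 libraries were above all control libraries, and the rise was 0.46 (SE 0.09, adjusted p = 0.000802). Fermt3, the kindlin of blood cells, read 2.32, 2.58 and 2.09 CPM in control and 3.69, 3.37 and 4.68 CPM in JAG1, a rise of 0.75 (SE 0.19, adjusted p = 0.00648). Fermt3 lies on chromosome 19, whose tested genes were mostly higher, and relative to the median of the others its change was 0.14. At its 3' end it overlaps Trpt1 on the other strand, which rose by 0.74 (adjusted p = 0.00394), and without knowledge of the strand used in counting the 2 genes cannot be told apart.

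Tln1, the main talin and the most abundant activator in control, read 135, 130 and 117 CPM in control and 140, 136 and 125 CPM in JAG1. The groups overlapped, and the difference of 0.07 (SE 0.07) passed no threshold (adjusted p = 0.404). Tln2, the second talin, read 31.7, 28.9 and 28.0 CPM in control and 21.1, 19.6 and 21.8 CPM in JAG1. It fell by 0.50 (SE 0.08, adjusted p = 0.000357), so that the log2 ratio of Tln1 to Tln2 counts went from 2.11 ± 0.0501 to 2.68 ± 0.147 (SD, n = 3 each; exact permutation p = 0.1, the smallest possible).

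Of the 4 links to actin, Actn1 and Vcl were lower and Actn4 and Tns1 did not pass the test. Actn1 (chr12:80167547-80260371, minus strand), the alpha-actinin that crosslinks actin at adhesion sites, was the most abundant of the 46 genes in control. It read 1029, 1039 and 1024 CPM in control and 590, 589 and 576 CPM in JAG1, and fell by 0.82 (SE 0.04, adjusted p = 4.97e-08). Its paralog Actn4 read 375, 426 and 459 CPM in control and 469, 436 and 464 CPM in JAG1, with overlap and no call (0.12, SE 0.07, adjusted p = 0.167). The Actn4 difference passed the threshold at 0.19 without control replicate 3 (adjusted p = 0.0243). The log2 ratio of Actn1 to Actn4 counts went from 1.30 ± 0.151 to 0.36 ± 0.0669 (SD, n = 3 each; exact permutation p = 0.1). That ratio restates the separate levels and adds nothing to the call of Actn1. The 2 paralogs are similar in sequence, and how reads matching both were treated is not given in the sources used here. Actn4 also overlaps Capn12 on the other strand at its 3' end, which read 261 ± 17.6 CPM in control and 282 ± 21.9 CPM in JAG1, with no call.

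Vcl (chr14:20929398-21033676, plus strand) encodes vinculin, which binds talin and actin when the site is under force, and its promoter with the CArG box is printed above. It read 97.3, 104 and 116 CPM in control and 48.7, 42.7 and 43.3 CPM in JAG1. The level in every JAG1 library was about that of the others and well under any control library, and Vcl fell by 1.23 (SE 0.08, adjusted p = 2.69e-07), or 2.35-fold. Ap3m1, at the 3' end of Vcl on the other strand, read 19.8 ± 1.36 and 18.2 ± 0.587 CPM, with no call. Tns1, which encodes a tensin that binds beta tails and actin, overlapped between the groups (0.12, adjusted p = 0.494).

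The complex of ILK, PINCH and parvin, which sits on the beta tail beside kindlin, had 1 of its 4 tested members past the threshold. Lims1 (chr10:58323466-58424691, plus strand), which encodes PINCH1, had the largest rise of the 30 tested genes. It read 22.7, 30.3 and 36.3 CPM in control and 66.1, 66.3 and 75.9 CPM in JAG1, so that the control libraries differed among themselves more than the JAG1 libraries did and still lay well below them. The rise was 1.22 (SE 0.14, adjusted p = 1.71e-05), or 2.34-fold. Its partner Ilk, the integrin-linked pseudokinase, read 66.1, 69.2 and 79.8 CPM in control and 71.3, 69.2 and 75.4 CPM in JAG1, with a difference of 0.01 (SE 0.08, adjusted p = 0.958). Taf10, on the other strand at the 3' end of Ilk, had 1351, 1308 and 1469 counts in control and 1312, 937 and 1149 in JAG1, where Ilk had 1339, 1289 and 1526 and 1431, 1005 and 1242. The counts of these genes lay within a few percent of each other in control and were lower for Taf10 in each JAG1 library, with no call for Taf10 (-0.10, adjusted p = 0.250). Whether they share reads was not tested. The parvins, which join the complex to actin, gave 0.02 for Parva (adjusted p = 0.769) and -0.05 for Parvb (adjusted p = 0.560), both with overlapping groups.

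With Lims1 higher and no call for Ilk, the log2 ratio of Lims1 to Ilk counts went from -1.29 ± 0.219 to -0.05 ± 0.0599 (SD, n = 3 each; exact permutation p = 0.1). That separation follows from the Lims1 levels and adds nothing to the call of Lims1. The log2 ratio of Parva to Parvb counts was 0.93 ± 0.0584 and 1.00 ± 0.0716, with overlap (exact permutation p = 0.3). Lims2, encoding PINCH2, had at most 4 counts in control and 8 in JAG1 and was not tested.

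Among the LIM domain scaffolds, which shuttle between adhesion sites and the nucleus, Tgfb1i1 changed most. Tgfb1i1 (chr7:128246812-128255699, plus strand) encodes Hic-5, a paxillin relative first found as a gene induced by TGF-beta. It read 16.9, 17.8 and 15.5 CPM in control and 6.43, 7.43 and 6.20 CPM in JAG1, and fell by 1.33 (SE 0.11, adjusted p = 1.74e-06). Paxillin itself, Pxn, read 21.0, 21.8 and 31.4 CPM in control and 26.7, 18.8 and 24.5 CPM in JAG1, with overlap and no call (-0.08, adjusted p = 0.706). The log2 ratio of Pxn to Tgfb1i1 counts went from 0.54 ± 0.416 to 1.79 ± 0.395 (SD, n = 3 each; exact permutation p = 0.1).

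Zyx, encoding zyxin of mature adhesions and stress fibers, read 41.9, 38.0 and 40.3 CPM in control and 29.5, 27.5 and 28.8 CPM in JAG1. It fell by 0.49 (SE 0.07, adjusted p = 0.000174). Its 3' end lies near that of Epha1 on the other strand, at 1.48 ± 0.447 CPM in control and 0.760 ± 0.326 CPM in JAG1, far below the level of Zyx.

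Of the 3 signaling components, Src and Bcar1 were lower. Src, the founding SRC family kinase, read 59.3, 66.0 and 71.0 CPM in control and 48.5, 52.1 and 51.9 CPM in JAG1, and fell by 0.36 (SE 0.08, adjusted p = 0.00187). Bcar1, encoding the SRC substrate p130Cas and the most abundant gene of this class, read 96.3, 96.0 and 94.9 CPM in control and 86.8, 77.6 and 83.1 CPM in JAG1. It fell by 0.21 (SE 0.06, adjusted p = 0.0100). Ptk2, encoding FAK, read 51.2, 47.8 and 49.3 CPM in control and 42.6, 44.7 and 45.3 CPM in JAG1. Its groups did not overlap, and at -0.16 (SE 0.06) it missed the threshold narrowly (adjusted p = 0.0510), which it passed with upper-quartile scaling (0.0324), limma-voom (0.0449) and the authors' deposited log2 values (0.0429).

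Chromosome position moved with several of these values. On chromosome 15 the 460 tested genes centered on -0.53 (median, 346 lower and 32 higher) and on chromosome 19 the 423 tested genes centered on 0.61 (313 higher and 32 lower), while the medians of the other chromosomes lay between -0.12 and 0.05. Of the tested integrin and adhesion genes, Itgb7, Itga5, Ptk2 and Parvb lie on chromosome 15 and Fermt3 on chromosome 19. Relative to the median of the other genes of its chromosome, Itgb7 stood at -1.14 on the log2 scale. Ptk2 and Parvb lay above their chromosome's median, by 0.37 and 0.48. The part of the chromosome in these 5 values was not tested, and the other 25 genes lie on chromosomes without such a median.

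**Figure D3:**
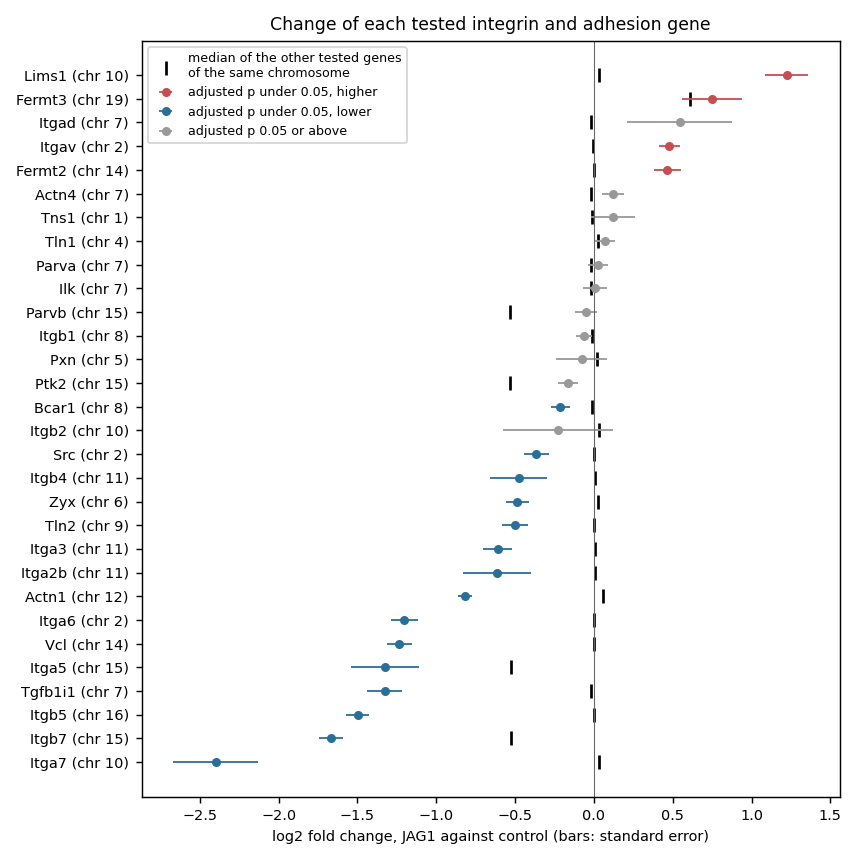
Log2 fold change of each of the 30 tested genes, JAG1 against control, with bars of 1 standard error and the chromosome in parentheses. Black ticks give the median of the other tested genes of the same chromosome, which lies near 0 except for chromosome 15 (-0.53) and chromosome 19 (0.61). Lims1 is highest at 1.22 and Itga7 lowest at -2.40.

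Beyond the core genes, a list of 77 further proteins of adhesion sites had 71 tested. Of these 22 passed as higher and 21 as lower (median -0.01 on the log2 scale), together 60.6%, near the 55.1% of all tested genes. Svil, encoding supervillin, which ties myosin to the membrane, fell by 4.04 (SE 0.17, adjusted p = 6.17e-09), from 12.6 ± 0.508 CPM to 0.748 ± 0.140 CPM (SD, n = 3 each). Ptk2b, encoding the FAK relative PYK2, had 47, 27 and 50 counts in control and 4, 3 and 3 in JAG1, and fell by 3.40 (adjusted p = 2.74e-05). Fhl1, a LIM-only protein, went from 28.8 ± 2.89 to 5.50 ± 1.25 CPM and fell by 2.40 (adjusted p = 1.39e-07). Lyn, a SRC family kinase of blood cells, rose from 4.07 ± 0.454 to 27.2 ± 2.19 CPM, by 2.74 (adjusted p = 6.61e-09), while Src itself fell. Smaller rises were those of Asap2, an ARF GTPase-activating protein at the adhesion site (0.97, adjusted p = 9.17e-06), and Sorbs2, a vinculin-binding adaptor (0.89, adjusted p = 0.00251).

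The matrix and cell surface ligands of integrins moved in both directions. The 68 listed names stand for 65 genes, since some genes were listed under 2 names. Of these genes 41 were tested, with 10 higher and 23 lower, 80.5% against 55.1% of all tested genes, and a median of -0.33. Ccn2 (listed as CTGF), a matricellular ligand of several integrins, read 1308, 2002 and 2262 CPM in control and 199, 169 and 184 CPM in JAG1, and fell by 3.33 (adjusted p = 2.91e-08). Tgfbi, a secreted ligand induced by TGF-beta, went from 24.2 ± 1.79 to 1.31 ± 0.166 CPM and fell by 4.18 (adjusted p = 1.02e-09). Edil3, an RGD protein bound by alphaV integrins, had 124 to 162 counts in control and 2 to 5 in JAG1.

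Other ligands rose. Nid1, which encodes the basement membrane linker nidogen-1, had 4, 0 and 2 counts in control and 638, 483 and 439 in JAG1, a fitted rise of 8.11 that depends on the few control counts. Col1a2, a chain of type I collagen, rose from 3.35 ± 0.528 to 50.7 ± 6.20 CPM, by 3.92 (adjusted p = 1.42e-09). The other chain of that collagen, Col1a1, was more abundant in both groups and fell by 0.53, from 236 ± 2.56 to 164 ± 14.3 CPM (adjusted p = 3.50e-05). Adam9, a membrane protease that integrins bind, read 2.22, 11.2 and 20.6 CPM in control and 27.6, 48.9 and 40.9 CPM in JAG1, a rise of 1.79 (adjusted p = 0.00761) with widely spread control libraries.

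**Figure D4:**
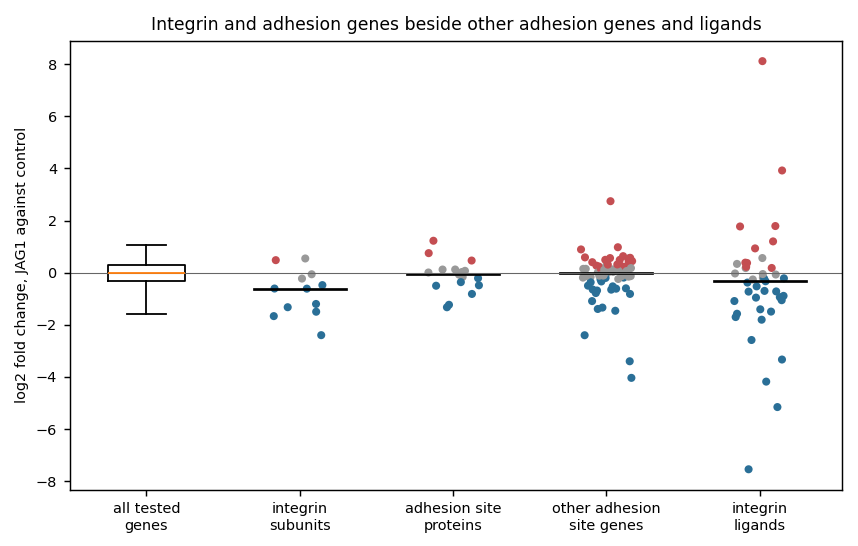
Log2 fold change, JAG1 against control, of the tested integrin subunits, adhesion site proteins, other adhesion site genes and integrin ligands, 1 point per gene (red higher, blue lower, gray no call), with the median of each as a black line. The box at the left gives the quartiles and the 5% and 95% limits of all 11712 tested genes (-1.58 and 1.06). The medians run from -0.61 for the subunits to -0.01 for the other adhesion site genes, and the lowest ligand point, Npnt, had no count in any JAG1 library, so its fitted value is no bound.

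Markers of other cell types that express integrins were read beside these genes. Fibroblast and mesenchymal markers summed to 507 to 554 CPM in control and 276 to 323 CPM in JAG1, with 4 of 6 tested markers lower and 1, Col1a2, higher. Neuronal markers summed to 76.4 to 84.5 CPM and 8.12 to 9.23 CPM, nearly all from Tubb3, while Rbfox3 had at most 1 count and Snap25 was at 0 in all libraries. Endothelial markers summed to at most 0.322 CPM, and of 6 oligodendrocyte markers 1 was tested and had no call. The part of any such cells in the integrin values was not tested.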

How the data were processed

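Ink4a/Arf -/- mouse astrocytes were read by QuantSeq 3' mRNA-seq in 6 libraries, 3 control and 3 JAG1, grouped by their titles. Per the file headers, the authors deposited 1 table per library with raw read counts and the log2 of a normalized count for 23282 gene symbols. The submitters' processing notes name Bowtie2, bedtools and edgeR and the build GRCm38 (mm10). Versions, the counting rule and its use of strand are not given in the sources used here. How reads shared by paralogs or overlapping genes were assigned can thus change a gene's counts.

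Results rest on the deposited counts, with the authors' log2 values as 1 alternative. In R 4.3.3, edgeR 4.0.16 was run on all genes: 11712 genes passed filterByExpr (minimum count 10), TMM scaling was applied, and JAG1 was compared with control by the quasi-likelihood test with Benjamini-Hochberg adjustment and a threshold of 0.05. SE values come from the F statistic. Every adjusted p in the text is from this test unless another is named. Levels are given in CPM after TMM scaling, ± SD across the 3 libraries. Shares and ratios of counts were compared by two-sided exact permutation tests, and counting intervals, which cover counting error only, are exact 95% intervals. The ratios use the same counts as the calls of their genes and are not separate results. The edgeR script was tested on simulated data. Alternatives were DESeq2 1.42.0, limma-voom (limma 3.58.1), library size or upper-quartile scaling, no filter, a mean filter of 10 counts, a replicate block, the deposited log2 values, fold limits of 1.5 and 2, and leaving out each library.

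All 46 symbols matched RefSeq of GRCm38.p6, whose promoter table gave the sequences, and gene positions and overlaps come from GENCODE M21 on GRCm38. The genes and lists were chosen with earlier results of these data known. Named with full values were the called genes with an absolute log2 fold change of at least 0.5, the most abundant gene of each role, genes at no more than 3 counts in 1 group alone, Jag1, and from each further list the 3 largest called rises and falls with a mean of at least 1 CPM. Others were named after their values were seen.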

Additional observations from a re-analysis of the deposited data

How the results depend on the processing

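Over 14 alternative fits of the 30 tested genes, 403 of 420 values kept their side of the threshold, 17 changed it and 0 changed direction past it. The 17 concern Itga2b, Itgb4, Ptk2 and Actn4, as given beside them above. The number of integrin and adhesion genes called was 17 to 20 (19 in the main test), the higher ones 4 to 5 and the lower ones 13 to 16. Leaving out 1 library in turn gave 17 to 20 called, 4 to 5 higher and 13 to 15 lower, 5516 to 6600 of all genes (6458), 37 to 46 of the other adhesion site genes (43) and 31 to 34 of the ligands (33). A fold limit of 1.5 left 3106 of all genes, 12 integrin and adhesion genes of which 2 higher, and 19 other adhesion site genes. A fold limit of 2 left 1633 of all genes, 8 integrin and adhesion genes with 1 higher and 7 lower, 8 other adhesion site genes and 17 ligands; fewer pass by the limit's own construction. Same-numbered libraries of the groups deviated together with correlations of 0.208, 0.0571 and 0.138. JAG1 replicates 1 and 3 correlated best with the control of their own number. JAG1 replicate 2 did so about equally with control replicates 2 (0.0571) and 3 (0.0580). These values do not settle whether the numbers are pairs, and the main test was unpaired. With a replicate block 6711 of all genes and 19 integrin and adhesion genes were called, 4 higher and 15 lower, and no call of an integrin or adhesion gene changed. Depth limits the 16 untested genes.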
